A study of Mus musculus with 8 samples.

Results

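The nuclear genes for respiratory complexes II to V were examined in kidney RNA of diabetic mice given recombinant fibroblast growth factor 4 (rFGF4) or vehicle. Members were chosen by gene symbol, as every gene whose symbol names a subunit of succinate dehydrogenase (*Sdha* to *Sdhd*), of the cytochrome bc1 complex or its assembly (*Uqcr* and *Uqcc* genes, *Cyc1*), cytochrome c (*Cycs*), of cytochrome c oxidase (*Cox4* to *Cox8* genes) or of ATP synthase (*Atp5* genes), leaving out symbols with -ps. This gave 54 of the 55401 genes listed, of which 4 belong to complex II, 13 to complex III with cytochrome c, 19 to complex IV and 18 to complex V. The rule reads symbols and no expression value, but it was set with earlier results of these data known.

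The respiratory chain passes electrons from succinate through complex II, and from complex I, to ubiquinone, then through complex III and cytochrome c to complex IV, where oxygen is reduced. Complexes III and IV pump protons across the inner mitochondrial membrane, and complex V uses the returning protons to make ATP. Complex II is coded entirely by nuclear genes, whereas complexes III, IV and V join nuclear subunits with a few that are coded by mitochondrial DNA. In the kidney the proximal tubule and the thick ascending limb are rich in mitochondria, since sodium reabsorption there consumes much ATP.

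RNA labelled as kidney was sequenced from 8 male diabetic mice, 4 given rFGF4 (mice 1, 2, 3 and 5) and 4 given PBS vehicle (mice 2, 3, 4 and 5). The sample labels give the leptin receptor mutant *db*/*db* as the model of both groups, whereas the paper's text describes the sequenced mice as diabetic after streptozotocin, so the model was uncertain. The methods name the cortex of the kidney for RNA extraction without tying it to the sequencing. The study gave rFGF4 into the peritoneum every other day in its treatment experiments, but ties no age or dose to the sequenced mice. No mouse without diabetes was in the data, and the separate numbering was taken to mean separate mice. Expression is given as FPKM, a fragment number divided by exon length and by the size of the mapped library. A comparison of levels between genes therefore depends on the exon length used for each. The files hold no counts, so neither depth nor counting error is known; a comparison of the smallest values put the depth of the 8 libraries within 0.905 to 1.122 times that of vehicle mouse 2.

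The tissue label was checked against marker genes. All 10 proximal tubule, 4 thick ascending limb and 5 podocyte markers were expressed, whereas the 6 brown fat and muscle markers summed to at most 0.831 FPKM and the 4 adipocyte markers to at most 0.186 FPKM in any library, with the muscle myosin gene *Myh4* at 0 in all 8. Libraries of 1 group differed widely. The share of FPKM from mitochondrially coded transcripts was 19.0% in rFGF4 mouse 1, 24.7% to 36.0% in the other rFGF4 mice, 24.4% in vehicle mouse 5 and 34.2% to 38.4% in the other vehicle mice. Since FPKM is a share of a library's reads, this alone can move the values of all other genes. The 5 macrophage markers summed to 427 FPKM in rFGF4 mouse 1 and 459 FPKM in vehicle mouse 5, against 25.5 to 183 FPKM in the other 6 mice. The 5 B and plasma cell markers summed to 22907 FPKM in vehicle mouse 5 and to 24.2 to 2716 FPKM in the other 7 mice, so that this library stood apart. In bulk tissue, fewer cells of a type and less RNA per cell cannot be told apart.

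Members were abundant. Of the 54, 50 had at least 0.5 FPKM in 4 or more libraries and were tested, and 26 of these had a mean above 100 FPKM. The 4 that were not tested were *Cox7b2* and a second listing of *Atp5o*, both at 0 in every library, the testis form *Cox8c* (at most 0.11 FPKM) and the muscle form *Cox8b* (0 to 1.01 FPKM). In complex II the mean over 8 libraries ran from 98 FPKM for *Sdhc* to 177 FPKM for *Sdhd*, in complex III from 8.16 FPKM for the assembly factor *Uqcc1* to 372 FPKM for *Uqcr10*, in complex IV from 0.963 FPKM for *Cox4i2* to 566 FPKM for *Cox6b1*, and in complex V from 29.9 FPKM for *Atp5l* to 495 FPKM for *Atp5a1*. The coefficient of variation over the 8 libraries had a median of 17.4% among tested members and ran from 8.03% for *Atp5g2* to 62.1% for *Cox6a2*. Exons of 14 tested members overlap another gene in the annotation, among them *Cox6a2* with the leukocyte integrin *Itgad*, *Cox6c* with *Vps13b*, *Atp5j* with *Gabpa* and *Atp5l* with *Gm30934*, and how such fragments were assigned was not given.

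To see whether rFGF4 shifted these genes, FPKM values of the 4 treated mice were compared with those of the 4 vehicle mice with limma on log2(FPKM + 1). Most members were a little lower in the rFGF4 group, and almost none beyond the spread between mice. The log2 fold change was below 0 for 44 of 50 members (88.0%), against 32.9% of all 15150 tested genes. The median of the members was -0.21 (quartiles -0.28 and -0.12, range -0.49 to 0.36) and that of all tested genes 0.086. These values are for FPKM as deposited. After rescaling FPKM to the same sum in each library, 23 of 50 members were below 0 and their median was 0.011. Members share the same mice and libraries, so their common sign is not a count of independent observations. *Atp5j2* alone had an unadjusted p under 0.05 (1 of 50 or 2.0%, against 1.06% of all tested genes in the lower direction), and no member was higher at that p (3.56% of all genes were). No member passed the study's threshold, an unadjusted p under 0.05 joined to a fold of 1.5 or more upward or 0.67 or less downward, which 0.436% of all genes passed as lower and 1.09% as higher. After Benjamini-Hochberg adjustment in limma 0% of all genes and no member had an adjusted p under 0.05, and the members' smallest adjusted p was 0.918.

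**Figure D1:**
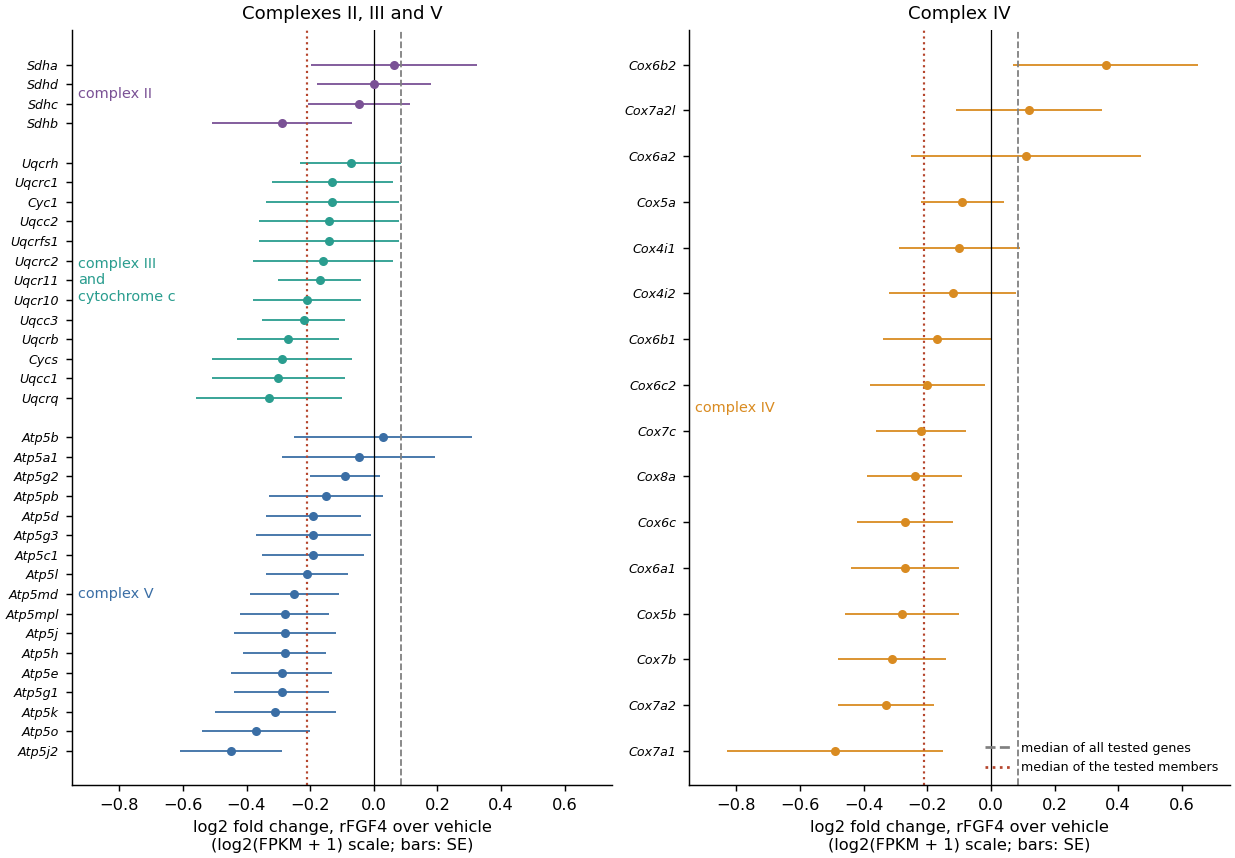
Log2 fold change (rFGF4 over vehicle, log2(FPKM + 1) scale) of the 50 tested members, grouped by complex, with the standard error from limma as bars. Points lie mostly between 0 and -0.49, left of the median of all tested genes (dashed, 0.086), and centre on the median of the members (dotted, -0.21); only *Cox6b2*, *Cox7a2l*, *Cox6a2*, *Sdha*, *Atp5b* and *Sdhd* lie above 0.

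The offset was carried unequally by the mice. The median deviation of the 50 members from each gene's own mean was -0.39 (log2) in rFGF4 mouse 1, -0.026 in mouse 2, -0.11 in mouse 3 and 0.078 in mouse 5. In vehicle mice 2, 3 and 4 it was 0.20, 0.26 and 0.17, but in vehicle mouse 5 it was -0.13. The groups thus overlapped, with vehicle mouse 5 below 3 of the 4 treated mice. rFGF4 mouse 1 had the lowest value of 38 of the 50 members, and vehicle mouse 3 the highest of 23 and vehicle mouse 2 the highest of 14. Without rFGF4 mouse 1 the median of the members was -0.15 and that of all genes 0.01, so that the distance between them shrank from -0.29 to -0.16. In a principal component analysis of the members, the leading axis took 62.4% of their variance and set rFGF4 mouse 1 (-0.78) against vehicle mouse 2 (0.38), and the next took 20.9% and set rFGF4 mouse 3 (-0.56) against vehicle mouse 3 (0.75).

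**Figure D2:**
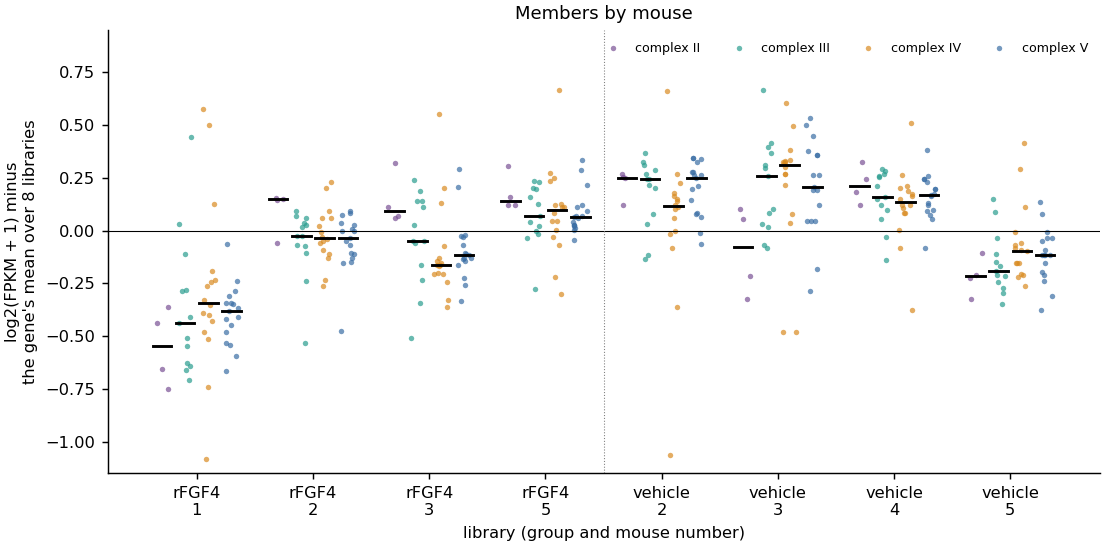
Deviation of each tested member from its mean over the 8 libraries (log2(FPKM + 1), vertical axis) in each mouse, coloured by complex, with the median of each complex as a black bar. Nearly all members lie below 0 in rFGF4 mouse 1 (median -0.39), vehicle mice 2, 3 and 4 lie mostly above 0 (0.20, 0.26 and 0.17), and vehicle mouse 5 lies below 0 (-0.13).

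Complex II showed no common shift. Succinate dehydrogenase oxidizes succinate in the citric acid cycle, and the median log2 fold change of its 4 genes was -0.022, with 2 lower and 2 higher. The flavoprotein *Sdha*, which holds the active site, was at 106, 187, 210 and 208 FPKM in rFGF4 mice 1, 2, 3 and 5 and at 202, 134, 199 and 134 FPKM in vehicle mice 2, 3, 4 and 5. Both groups held high and low mice, and the log2 fold change was 0.064 (SE 0.26). The iron-sulfur subunit *Sdhb* was at 81.4, 132, 149 and 150 FPKM after rFGF4 and at 164, 148, 173 and 128 FPKM after vehicle, a log2 fold change of -0.29 (SE 0.22, two-sided exact permutation p = 0.314). Without rFGF4 mouse 1 the log2 fold change of *Sdhb* was -0.085. The membrane anchors *Sdhc* (96.9 ± 17.2 against 99.1 ± 10.3 FPKM, mean ± SD) and *Sdhd* (177 ± 28.0 against 177 ± 31.2 FPKM) had almost equal means. rFGF4 mouse 1 was the lowest of all 8 mice for each of the 4 genes.

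In complex III with cytochrome c all 13 members were lower on average in treated mice (median log2 fold change -0.17), and none passed the test. *Uqcrq*, a small subunit beside cytochrome b, had the lowest estimate, -0.33 (SE 0.23, exact permutation p = 0.257). Its values were 69.6, 78.7, 89.9 and 95.5 FPKM in rFGF4 mice 1, 2, 3 and 5 and 120, 148, 90.9 and 72.8 FPKM in vehicle mice 2, 3, 4 and 5, so that vehicle mice 4 and 5 lay within the treated mice. Without vehicle mouse 3 the estimate of *Uqcrq* was -0.16, above that of *Uqcc1* (-0.32). *Uqcrb*, named for ubiquinone binding, was at 129, 172, 168 and 173 FPKM after rFGF4 and at 211, 226, 182 and 158 FPKM after vehicle, a log2 fold change of -0.27 (SE 0.16). The Rieske iron-sulfur protein *Uqcrfs1* had a log2 fold change of -0.14 (SE 0.22), cytochrome c1 (*Cyc1*) -0.13 (SE 0.21) and the core protein *Uqcrc1* -0.13 (SE 0.19). Cytochrome c (*Cycs*), the soluble carrier between complexes III and IV that also triggers apoptosis when released, was at 49.8, 80.5, 90.5 and 83.2 FPKM after rFGF4 and at 102, 101, 95.1 and 69.1 FPKM after vehicle (log2 fold change -0.29, SE 0.22). Without rFGF4 mouse 1 the log2 fold change of *Cycs* was -0.1. Of the assembly factors, *Uqcc1* had a log2 fold change of -0.30 (SE 0.21) and *Uqcc3* one of -0.22 (SE 0.13, exact permutation p = 0.143).

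In complex IV 13 of 16 tested members were lower (median log2 fold change -0.21), and none passed the test. *Cox7a2*, the form of subunit 7a in most tissues, came nearest, with 128, 168, 150 and 173 FPKM in rFGF4 mice 1, 2, 3 and 5 and 202, 216, 200 and 162 FPKM in vehicle mice 2, 3, 4 and 5. Vehicle mouse 5 lay between the treated mice, and the log2 fold change was -0.33 (SE 0.15, limma p = 0.0579, two-sided exact permutation p = 0.0857). *Cox7b* was at 161, 220, 201 and 232 FPKM after rFGF4 and at 271, 283, 245 and 210 FPKM after vehicle (log2 fold change -0.31, SE 0.17, exact permutation p = 0.0857). Subunits 4 and 5, which surround the catalytic core and bind regulators, lay close to 0 or overlapped widely: *Cox4i1* had a log2 fold change of -0.10 (SE 0.19), *Cox5a* of -0.09 (SE 0.13) and *Cox5b* of -0.28 (SE 0.18). *Cox6a1* was at 506 ± 74.9 FPKM after rFGF4 and 608 ± 62.6 FPKM after vehicle (log2 fold change -0.27, SE 0.17), *Cox6b1* at 533 ± 70.4 and 599 ± 66.2 FPKM (-0.17, SE 0.17) and *Cox8a* at 392 ± 43.7 and 463 ± 53.2 FPKM (-0.24, SE 0.15). The processed copy of *Cox5b* that is listed as *Cox5b-ps* and is no member shared 387 of the 390 coding bases (99.2%) and was itself listed at 62.2 to 120 FPKM, so reads of *Cox5b* may have been divided between them.

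In complex V 16 of 17 tested members were lower, and their median log2 fold change, -0.25, was the lowest of the complexes. *Atp5b*, a catalytic subunit of the F1 head where ATP is made, was at 253, 429, 493 and 508 FPKM in rFGF4 mice 1, 2, 3 and 5 and at 511, 330, 481 and 310 FPKM in vehicle mice 2, 3, 4 and 5, a log2 fold change of 0.028 (SE 0.28). Its partner *Atp5a1* had 489 ± 115 FPKM after rFGF4 and 502 ± 109 FPKM after vehicle (-0.048, SE 0.24). *Atp5j2*, which codes for subunit f of the membrane part, was the member with p under 0.05. It was at 46.1, 42.0, 54.2 and 59.9 FPKM after rFGF4 and at 67.5, 83.5, 69.7 and 57.3 FPKM after vehicle. Vehicle mouse 5 lay below rFGF4 mouse 5, and the log2 fold change was -0.45 (SE 0.16, limma p = 0.0218, adjusted p = 0.918, two-sided exact permutation p = 0.0571). The p of *Atp5j2* was 0.0651 without rFGF4 mouse 2 and 0.0596 without vehicle mouse 3. When FPKM was rescaled to the same sum in each library its log2 fold change was -0.23, and -0.36 with mitochondrial transcripts left out of the sum. The p from limma was 0.158 and 0.0594 under these scalings, and 0.13 with mouse number as a block, which rests on mice 2, 3 and 5 of each group. *Atp5l*, which codes for subunit g, was the one member whose groups did not overlap (1 of 50, against 0.667% of all tested genes as lower and 2.66% as higher). Its treated mice had 22.1, 30.3, 28.3 and 30.3 FPKM and its vehicle mice 35.5, 30.7, 30.9 and 31.4 FPKM, so the gap between groups was smaller than the spread within either (log2 fold change -0.21, SE 0.13, limma p = 0.141, two-sided exact permutation p = 0.0286, the smallest that 4 mice against 4 allow). *Atp5o*, which links the head to the stalk, had a log2 fold change of -0.37 (SE 0.17, exact permutation p = 0.0857), and *Atp5h* and *Atp5mpl* one of -0.28 each (SE 0.13 and 0.14). The inhibitor of ATP synthase, *Atpif1*, does not match the rule and was at 131 to 165 FPKM with a log2 fold change of 0.062 (SE 0.12).

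The position and promoter letters of the 2 complex V genes singled out above were read from the reference. Promoter windows (from upstream to just past the start, GRCm38.p6, RefSeq) were matched to 40 member genes with 43 promoters, and 6 motifs known from promoters of respiratory genes were searched on both strands. The core of the nuclear respiratory factor 1 site (GCGCANGCG) was in 32.6% of member promoters and in 6.25% of all 32851 promoters, and the ETS site bound by GABP (CCGGAAG) in 30.2% and 8.86%. The estrogen-related receptor site TCAAGGTCA was in 4.65% and 0.423%, the YY1 core AAGATGGCG in 4.65% and 1.40%, the CCAAT box in 55.8% and 37.4%, and the GC box GGGCGGGG in 18.6% and 17.6%. The NRF1 core was in 14 member promoters and the ETS site in 13, but the estrogen-related receptor site and the YY1 core in only 2 each. The motifs do not contain one another. *Atp5j2* (chr5:145183698-145192062, minus strand) is shown for its p and *Atp5l* (chr9:44912557-44920742, minus strand) for its groups without overlap, each 5′ to 3′. Capitals mark the YY1 core in the first, and 1 NRF1 core and 2 ETS sites, all on the opposite strand, in the second; matches of the CCAAT box, which both windows hold, are not marked. The windows are chr5:145191492-145191791 and chr9:44920693-44920992; gene positions are from GENCODE, and the RefSeq start used for the *Atp5j2* window lies inside the GENCODE gene, downstream of its 5′ end.
Atp5j2 promoter: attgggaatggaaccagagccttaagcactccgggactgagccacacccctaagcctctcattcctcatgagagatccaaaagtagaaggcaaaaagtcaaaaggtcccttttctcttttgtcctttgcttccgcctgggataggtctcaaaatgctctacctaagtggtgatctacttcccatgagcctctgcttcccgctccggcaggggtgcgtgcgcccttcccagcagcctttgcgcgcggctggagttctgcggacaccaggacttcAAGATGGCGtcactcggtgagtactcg
Atp5l promoter: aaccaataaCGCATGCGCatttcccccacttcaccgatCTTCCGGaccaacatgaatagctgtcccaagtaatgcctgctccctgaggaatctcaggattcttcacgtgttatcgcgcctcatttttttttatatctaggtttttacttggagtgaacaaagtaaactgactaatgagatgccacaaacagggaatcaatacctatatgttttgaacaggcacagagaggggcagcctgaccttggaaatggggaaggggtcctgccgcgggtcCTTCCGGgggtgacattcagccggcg

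Several subunits come as pairs or triplets of paralogs, 1 form common to most tissues and another typical of heart and muscle, lung or testis. In all 8 kidneys the common form prevailed. The lung and hypoxia form *Cox4i2* was at 0.489 to 1.58 FPKM beside 237 to 380 FPKM of *Cox4i1*. The muscle form *Cox6a2* was at 0.359 to 2.61 FPKM beside 421 to 680 FPKM of *Cox6a1*, and the testis form *Cox6b2* at 4.08 to 14.8 FPKM beside 447 to 654 FPKM of *Cox6b1*. The muscle form *Cox7a1* was at 5.66, 15.2, 9.96 and 16.0 FPKM in rFGF4 mice 1, 2, 3 and 5 and at 21.3, 20.4, 12.3 and 11.1 FPKM in vehicle mice 2, 3, 4 and 5. It had the lowest log2 fold change among all members, -0.49, with a wide error (SE 0.34, exact permutation p = 0.286). Without rFGF4 mouse 1 it was -0.21, above that of *Atp5j2* (-0.41). *Cox7a2l*, which serves supercomplexes of III and IV, went the other way in several mice, at 96.9, 57.8, 78.6 and 58.4 FPKM after rFGF4 and 77.4, 48.6, 82.1 and 59.1 FPKM after vehicle (0.12, SE 0.23). *Cox6b2* had the highest estimate of all members (0.36, SE 0.29, exact permutation p = 0.40), with vehicle mouse 2 at 4.08 FPKM far below the other mice (9.11 to 14.8 FPKM), and without that mouse the estimate was 0.07.

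A share within a pair does not depend on how libraries are scaled, but its size depends on the exon length used for each gene. *Cox7a2l* made up 32.0% ± 8.46 of *Cox7a2* plus *Cox7a2l* after rFGF4 and 25.5% ± 4.82 after vehicle (SD, n = 4 each, two-sided exact permutation p = 0.286). *Cox7a1* made up 6.79% ± 1.99 and 7.60% ± 1.80 of *Cox7a1* plus *Cox7a2* (exact p = 0.571), and *Cox6b2* made up 2.12% ± 0.755 and 1.49% ± 0.676 of the *Cox6b* pair (exact p = 0.314). Without rFGF4 mouse 1 the difference of 6.55 percentage points for *Cox7a2l* was 2.89, that of 0.63 for *Cox6b2* was 0.271, and that of -0.81 for *Cox7a1* turned to 0.0443. Of 9 shares compared, chosen after values were seen, none passed the test, with p-values of at least 0.804 after adjustment over the 9.

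**Figure D3:**
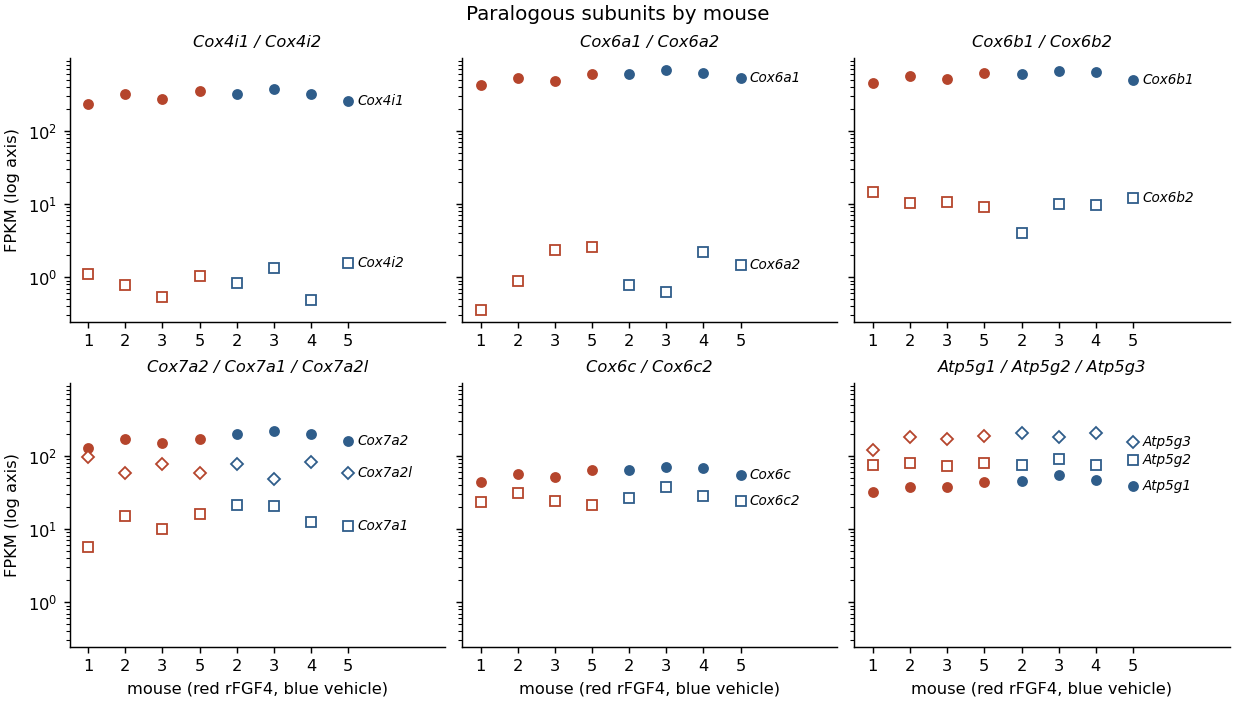
FPKM (log axis) of paralogous subunits in each mouse, rFGF4 in red and vehicle in blue, with the common form as filled circles and the others as open symbols. *Cox4i2* and *Cox6a2* lie far below their partners (at most 1.58 and 2.61 FPKM), whereas the 3 *Atp5g* genes and the *Cox6c* pair lie within 1 order of magnitude of each other.

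The *Cox6c* pair needs care, since *Cox6c2* is annotated as a processed pseudogene, an intronless copy that the rule kept because its symbol lacks -ps. *Cox6c* (chr15:35925886-35938246, minus strand) and *Cox6c2* (chr12:56373593-56373823, minus strand, 1 exon) are shown to make clear how alike their letters are. Over the 231 coding bases they differ at 7 positions (97.0% identical), in capitals below, as read from GENCODE M21 transcripts on GRCm38.
Cox6c: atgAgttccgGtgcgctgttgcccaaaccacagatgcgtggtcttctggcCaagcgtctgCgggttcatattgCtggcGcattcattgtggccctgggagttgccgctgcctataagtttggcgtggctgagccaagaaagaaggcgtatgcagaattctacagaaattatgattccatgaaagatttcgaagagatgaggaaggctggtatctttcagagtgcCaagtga
Cox6c2: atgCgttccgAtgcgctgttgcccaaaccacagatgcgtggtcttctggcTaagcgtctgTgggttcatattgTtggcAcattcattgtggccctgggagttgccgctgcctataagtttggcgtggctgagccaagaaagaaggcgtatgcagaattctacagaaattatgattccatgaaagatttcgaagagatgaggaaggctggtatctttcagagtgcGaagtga
*Cox6c* was listed at 44.4, 56.9, 50.9 and 64.1 FPKM in rFGF4 mice 1, 2, 3 and 5 and at 64.9, 71.2, 67.9 and 55.5 FPKM in vehicle mice 2, 3, 4 and 5 (log2 fold change -0.27, SE 0.15, exact permutation p = 0.114). *Cox6c2* was listed at 23.2, 31.5, 23.9 and 21.5 FPKM and at 26.4, 38.0, 28.3 and 23.9 FPKM (-0.20, SE 0.18). Its share of the pair was 31.8% ± 4.68 after rFGF4 and 30.8% ± 2.69 after vehicle (SD, n = 4 each, exact permutation p = 0.714). With so few differing bases many fragments fit both genes, so the division of reads between them is uncertain. Annotated exons cover 3567 bases for *Cox6c* and 231 for *Cox6c2*. Its share of FPKM is therefore not its share of fragments.

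The c ring of ATP synthase, the rotor through which protons return, is coded by 3 genes, *Atp5g1*, *Atp5g2* and *Atp5g3*, on chromosomes 11, 15 and 2. Their proteins differ in the leader that is cut off on import, whereas the 75 codons of the mature subunit translate to the same 75 residues in all 3 genes. The DNA differs at synonymous positions, with 84.9% of 225 bases identical between *Atp5g1* and *Atp5g2*, 80.0% between *Atp5g1* and *Atp5g3* and 78.7% between *Atp5g2* and *Atp5g3*, so that reads can be told apart. The first 90 coding bases of the mature subunit are shown 5′ to 3′ with the positions that differ among the genes in capitals.
Atp5g1: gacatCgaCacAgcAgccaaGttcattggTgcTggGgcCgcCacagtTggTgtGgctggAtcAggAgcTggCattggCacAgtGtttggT
Atp5g2: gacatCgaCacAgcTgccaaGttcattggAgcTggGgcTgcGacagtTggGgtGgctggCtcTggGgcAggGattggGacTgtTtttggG
Atp5g3: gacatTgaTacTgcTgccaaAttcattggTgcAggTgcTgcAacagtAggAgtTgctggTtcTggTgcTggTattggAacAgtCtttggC
*Atp5g3* had the highest FPKM, at 119, 184, 171 and 185 FPKM in rFGF4 mice 1, 2, 3 and 5 and at 209, 179, 204 and 156 FPKM in vehicle mice 2, 3, 4 and 5, and gave 58.7% ± 4.04 of the summed FPKM after rFGF4 and 59.2% ± 4.35 after vehicle (SD, n = 4 each, exact permutation p = 0.943). *Atp5g2* was the steadiest of all tested members at 72.0 to 90.4 FPKM in the 8 mice and gave 27.8% ± 3.74 and 26.1% ± 3.96 (exact permutation p = 0.514). *Atp5g1* had the lowest FPKM, at 31.7, 37.9, 37.9 and 43.7 FPKM after rFGF4 and at 46.1, 54.4, 47.0 and 38.3 FPKM after vehicle (log2 fold change -0.29, SE 0.15, exact permutation p = 0.0571), and gave 13.6% ± 0.706 and 14.7% ± 1.43 (exact permutation p = 0.229). Annotated exons cover 4912 bases for *Atp5g1*, 1675 for *Atp5g2* and 2181 for *Atp5g3*. The order of the 3 genes and the size of their shares therefore depend on the length used. In rFGF4 mouse 1 the ring had the smallest share of *Atp5g3* (52.7%) and the largest of *Atp5g2* (33.3%).

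Members with long and short coding sequences deviated by different amounts in the same mice. Members were divided by the length of their coding sequence, which is known for 49 tested members, into 12 of 600 bases or more (*Atp5o*, *Atp5pb*, *Uqcrfs1*, *Sdhb*, *Uqcc1*, *Atp5c1*, *Cyc1*, *Uqcrc2*, *Uqcrc1*, *Atp5b*, *Atp5a1* and *Sdha*) and 37 shorter ones. In rFGF4 mouse 1 the median deviation was -0.61 for long and -0.35 for short members. In vehicle mouse 3 it was 0.022 for long but 0.30 for short members, and in rFGF4 mice 3 and 5 the order was turned, with 0.12 and 0.21 for long and -0.13 and 0.046 for short members. Long members were also above short ones in vehicle mice 2 (0.28 and 0.14) and 4 (0.26 and 0.15), below them in vehicle mouse 5 (-0.20 and -0.12) and close to them in rFGF4 mouse 2 (-0.015 and -0.028). The rank correlation of coding length with the deviation across members ranged from -0.61 in vehicle mouse 3 to 0.58 in rFGF4 mouse 5, given as a description over 49 genes that share each library. Over all tested genes exon length was used, a different measure from coding length. Its rank correlation with the deviation lay between -0.20 in vehicle mouse 3 and 0.13 in rFGF4 mouse 3. The median log2 fold change was -0.14 for long and -0.22 for short members. The division was chosen after values were seen, and the part of RNA quality, size selection or other library steps in it was not tested.

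**Figure D4:**
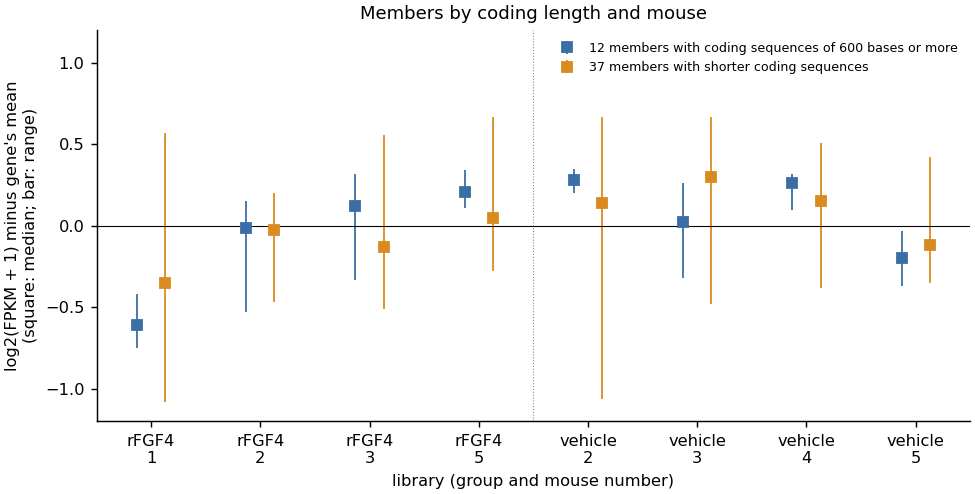
Median (square) and range (bar) of the deviation of members from their own mean (log2(FPKM + 1), vertical axis) in each mouse, for 12 members with coding sequences of at least 600 bases (blue) and 37 shorter ones (orange). Long members lie below short ones in rFGF4 mouse 1 (-0.61 and -0.35) and vehicle mouse 3 (0.022 and 0.30) and above them in rFGF4 mice 3 and 5 and vehicle mice 2 and 4.

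The genes around the members were compared in the same fit. The 6 partner subunits coded by mitochondrial DNA (*mt-Cytb*, *mt-Co1* to *mt-Co3*, *mt-Atp6* and *mt-Atp8*) were all lower (log2 fold changes from -0.63 to -0.39, median -0.53), and none passed the test. *mt-Co1*, the catalytic subunit of complex IV, was at 12987, 17806, 20837 and 27549 FPKM in rFGF4 mice 1, 2, 3 and 5 and at 29223, 24126, 28201 and 19636 FPKM in vehicle mice 2, 3, 4 and 5. Again rFGF4 mouse 1 was lowest, and vehicle mice 3 and 5 lay within the treated mice. Nuclear subunits of complex I had the same median as the members, -0.21, with 36 of 39 lower, 4 of them at an unadjusted p under 0.05 (1.06% of all tested genes were) and 5 with groups that did not overlap (0.667% of all tested genes as lower). Subunits of the mitochondrial ribosome had a median of -0.025 (46 of 83 lower) and those of the cytosolic ribosome of 0.099 (16 of 81 lower).

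Of 38 assembly and biogenesis factors outside the rule, 25 were lower (median log2 fold change -0.053), and 5 of these had a limma p under 0.05, against 1.06% of all tested genes in that direction, with adjusted p-values of 0.918. *Cox17*, the copper chaperone of complex IV, was at 4.02, 5.19, 4.01 and 4.63 FPKM in rFGF4 mice 1, 2, 3 and 5 and at 6.86, 8.82, 6.98 and 5.01 FPKM in vehicle mice 2, 3, 4 and 5 (log2 fold change -0.52, SE 0.17, limma p = 0.0138, exact permutation p = 0.0571). *Cox20*, which guides the second catalytic subunit of complex IV, was at 28.1, 28.5, 28.9 and 31.1 FPKM after rFGF4 and at 35.3, 40.9, 36.2 and 35.8 FPKM after vehicle, with no overlap (-0.33, SE 0.099, limma p = 0.00905, exact permutation p = 0.0286). *Fmc1*, an assembly factor of ATP synthase, was at 20.8, 23.2, 19.7 and 23.3 FPKM and at 30.4, 32.7, 29.0 and 24.2 FPKM, also without overlap (-0.40, SE 0.12, limma p = 0.0116, exact permutation p = 0.0286). *Cmc2* (-0.36, SE 0.11, limma p = 0.0104, exact permutation p = 0.0286) and the copper factor *Coa6* (-0.32, SE 0.12, limma p = 0.0308, exact permutation p = 0.0571) were the others. The 38 factors ranged from -0.52 to 0.87, the highest being *Pet117*, a complex IV factor, with a wide error (SE 0.48, exact permutation p = 0.20).

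Of 12 regulators of these genes, 8 had a log2 fold change above 0 and none had a limma p under 0.05 (median 0.092); of all tested genes 32.9% were below 0, against 33.3% of the regulators. *Tfb2m*, a mitochondrial transcription factor, was at 10.9, 11.5, 12.3 and 11.8 FPKM in rFGF4 mice 1, 2, 3 and 5 and at 10.0, 9.69, 10.7 and 10.5 FPKM in vehicle mice 2, 3, 4 and 5, with no overlap (2.66% of all tested genes as higher; log2 fold change 0.17, SE 0.096, limma p = 0.121, exact permutation p = 0.0286). *Yy1*, the factor that binds the YY1 site, had the value 0.28 (SE 0.13, exact permutation p = 0.0857). *Ppargc1a*, the coactivator that drives mitochondrial biogenesis, was at 5.0, 7.48, 7.44 and 9.09 FPKM in rFGF4 mice 1, 2, 3 and 5 and at 9.92, 7.67, 8.72 and 6.70 FPKM in vehicle mice 2, 3, 4 and 5 (log2 fold change -0.18, SE 0.19). *Esrra*, a nuclear receptor that binds promoters of respiratory genes, had the lowest value of the list (-0.41, SE 0.23, exact permutation p = 0.20). *Nrf1* (0.10, SE 0.15), *Gabpa* (0.14, SE 0.13) and the mitochondrial transcription factor *Tfam* (0.08, SE 0.14) differed by about their standard errors or less.

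Markers of cell types also differed widely between mice. The 10 proximal tubule markers summed to 1399, 3621, 7103 and 7110 FPKM in rFGF4 mice 1, 2, 3 and 5 and to 8889, 4304, 7959 and 4311 FPKM in vehicle mice 2, 3, 4 and 5; 9 of 10 were lower in the rFGF4 group and none passed the test. The 5 macrophage markers were all higher on average (median log2 fold change 0.43) without passing the test, with summed ranges of 34.6 to 427 FPKM after rFGF4 and 25.5 to 459 FPKM after vehicle, and none was at 0 in all libraries. The 5 red blood cell markers, all lower with a median of -1.97, summed to 120 to 2657 FPKM after rFGF4 and 1139 to 4325 FPKM after vehicle, and none of them passed the test either. Podocyte markers were higher in 5 of 5 (median 0.26), 1 of them (*Synpo*) at an unadjusted p under 0.05, where 10164 of 15150 tested genes were higher and 3.56% at that p. Of the 4 thick ascending limb markers, 2 were lower and 2 higher (median -0.11), with sums of 963 to 1388 FPKM after rFGF4 and 860 to 1240 FPKM after vehicle. Of the 4 tested B and plasma cell markers 2 were lower and 2 higher (median -0.30). Markers of the collecting duct (7 of 7, median -0.28), the distal convoluted tubule (3 of 3, -0.33) and the endothelium (5 of 5, -0.18) were all lower on average, with none passing the test. When rFGF4 mouse 1 and vehicle mouse 5, the mice with the highest macrophage markers, were both left out, 43 of 50 members were still below 0, the median was -0.23, and 7 members had an unadjusted p under 0.05 (*Atp5g1*, *Atp5j*, *Atp5j2*, *Atp5k*, *Atp5mpl*, *Atp5o* and *Cox7a2*), with no adjusted p under 0.05. In that setting 1.46% of all tested genes (221) were lower at this p, and 639 were higher. This choice was made after seeing the data, and the part of cell makeup in the difference was not tested.

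**Figure D5:**
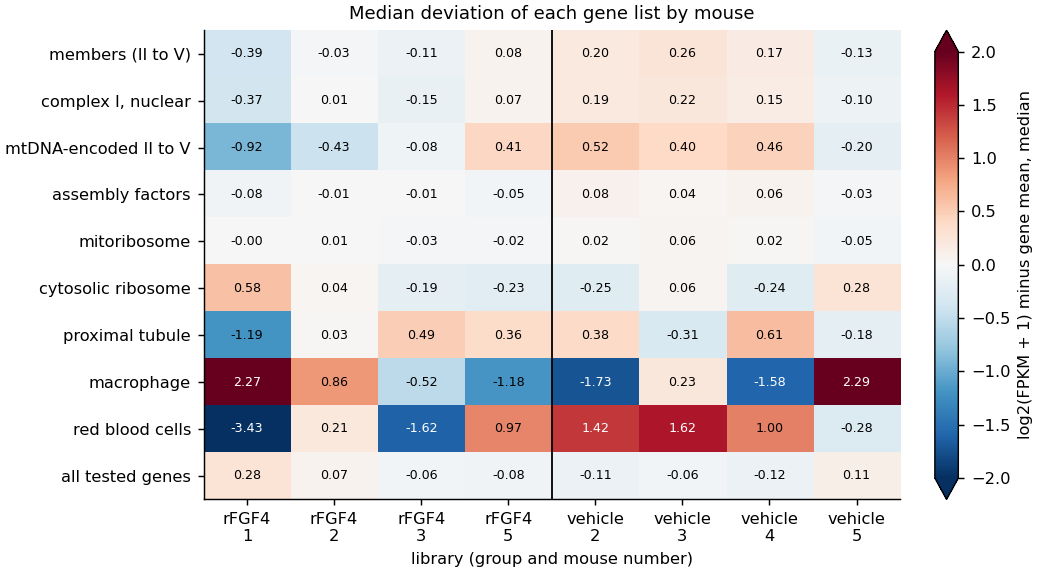
Median deviation of gene lists from each gene's own mean (log2(FPKM + 1), colour and printed value) in the 8 libraries. The members, complex I and the mitochondrially coded subunits are lowest in rFGF4 mouse 1 (-0.39, -0.37 and -0.92), where macrophage and cytosolic ribosome lists are high (2.27 and 0.58) and the proximal tubule list is lowest (-1.19).

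How many members were below 0 depended on how libraries were scaled. Such scaling multiplies all genes of a library by the same factor, so it can hardly change the distance of the members from other genes. That this distance stayed similar under it is therefore no test of the offset. When each library was scaled to a common median ratio, 48 of 50 members were below 0 (median -0.33, all genes -0.011). When FPKM was rescaled to the same sum in each library, which moved the median of all genes from 0.086 to 0.29, 23 members were below 0 and their median was 0.011. With mitochondrial transcripts left out of that sum, 39 were below 0 (median -0.11, all genes 0.19). Relative to the median of all tested genes, the members' median was -0.29 as deposited and -0.32, -0.28 and -0.30 under these 3 scalings, and -0.24 after a trend with transcript length had been removed from each library.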

How the data were processed

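Kidney RNA of 8 mice was sequenced as paired ends. Per the labels, Bowtie 0.12.2, HISAT2 2.0, StringTie 1.3.0 and build mm8 were named with no role; the authors assembled transcripts with StringTie, merged them with gffcompare and deposited FPKM per gene, with 0.0001 as a floor that was set to 0 here. The deposited fold change, log2 fold change, p-value and q-value columns of the authors' own comparison were not used. Depth is unknown without counts, so a count test and counting intervals were not possible. Samples were grouped by their titles, and vehicle is the paper's name for the group labelled as the untreated model.

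The 15150 genes that reached 0.5 FPKM in any 4 libraries or more were compared as log2(FPKM + 1) with limma 3.58.1 (R 4.3.3, trend in the prior variance), tested on simulated data, with Benjamini-Hochberg adjustment over all of them. Fold changes on this scale understate those of low genes. Single values were compared by two-sided exact permutation tests (smallest p 0.0286). Members and lists were chosen with earlier results of these data known. Members named are the 4 with the smallest p in each complex and those listed by role; *Atp5l* and the other genes were named after their values were seen. Gene positions came from GENCODE M21 (GRCm38) by identifier, found for 99.5% of 55401 genes, and promoters from RefSeq; neither is the authors' build. Exons of 14 of the 50 tested members overlap another gene, for which strand of counting is not given in the sources used here. Alternatives covered the pseudocount, the filter, library scaling, length trend, variance model, threshold, a block of mouse numbers and leaving out each mouse. Python 3.11.15 with scipy 1.17.1 and matplotlib 3.10.9 was used for the rest.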

Additional observations from a re-analysis of the deposited data

Results flagged for a closer look

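Of 92 groups of 4 values (36 named members as log2(FPKM + 1), the median deviation of the members and 9 paralog shares, each in either treatment), 7 held a mouse whose gap to the next, divided by the range of the group, was above Dixon's limit for 4 samples. Chance gives about 1 in 20, or 4.6 groups. rFGF4 mouse 1 was the low value for *Sdhc* (gap 0.869 of the range), *Sdha* (0.83), *Uqcrb* (0.91) and *Uqcrfs1* (0.919), which stood at 71.4, 106, 129 and 127 FPKM there. Vehicle mouse 2 was the high value for *Atp5l* (0.842), at 35.5 FPKM against 30.7 to 31.4 FPKM in the other vehicle mice. In the c ring, rFGF4 mouse 1 had the highest share of *Atp5g2* (0.926) and the lowest of *Atp5g3* (0.869).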

How the results depend on the processing

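No setting gave any member an adjusted p under 0.05 in limma or a higher one at an unadjusted p under 0.05, and none passed the study's threshold, though 1 (*Atp5j2*) did at a looser fold. The number of lower members at an unadjusted p under 0.05, 1 as reported, was 2 without a filter and after median ratio scaling, 0 under both rescalings to a common sum, 11 with array weights, 7 without the 2 mice with the highest macrophage markers, and 0 to 8 when each mouse was left out (0 without rFGF4 mouse 2 or vehicle mouse 3, 7 without rFGF4 mouse 5, 8 without vehicle mouse 5). Of all genes, 1.06% were lower at this p as reported, 1.43% without a filter, 2.44% after median ratio scaling, 0.297% and 0.576% under the rescalings, 2.95% with array weights, 1.46% without both mice, and 0.812%, 0.944%, 2.16% and 1.32% without the mice named last; 2 of 50 members is near the share after median ratio scaling. Members below 0 numbered 23 after rescaling to a common sum, with a median of 0.011; leaving out mice gave 38 to 49, medians of -0.27 to -0.15, and -0.42 to -0.16 relative to all genes. With mouse number as a replicate block no member passed, 35 were below 0 and the median was -0.13 (-0.11 relative to all genes, against -0.29 as reported). Numbers 1 and 4 occur in 1 group only, so this fit rests on mice 2, 3 and 5 of each group. It thus also leaves out rFGF4 mouse 1 and vehicle mouse 4. Deviations of same-numbered mice had correlations of -0.23, -0.16 and -0.39, not set against those of other pairs. These 3 values cannot settle whether the numbers pair the mice. Causes were not tested.

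Of 682 values of 36 named members under 19 alternatives, 592 kept their sign and side of the threshold. Signs turned under a common sum for *Sdhc* (0.18), *Cyc1* (0.092), *Uqcrc1* (0.093), *Uqcrfs1* (0.089), *Cox4i1* (0.13), *Cox5a* (0.14), *Cox6b1* (0.056), *Atp5a1* (0.18), *Atp5g2* (0.13), *Atp5g3* (0.033) and *Atp5l* (0.0081), and without mitochondrial transcripts for *Sdhc* (0.053), *Cox5a* (0.0092), *Atp5a1* (0.052) and *Atp5g2* (0.0075). Under median ratio scaling they turned for *Sdha* (-0.065), *Sdhd* (-0.13), *Cox7a2l* (-0.0075) and *Atp5b* (-0.10), with the length trend removed for *Sdha* (-0.045), *Sdhd* (-0.022) and *Atp5b* (-0.082), and with array weights for *Sdhc* (0.00012), *Sdhd* (-0.014) and *Cox7a2l* (-0.12). Under the block they turned for *Sdhc* (0.13), *Cyc1* (0.12), *Uqcrc1* (0.10), *Uqcrfs1* (0.13), *Cox4i1* (0.0091), *Cox5a* (0.016) and *Atp5a1* (0.22), and without the mice high in macrophage markers for *Sdhc* (0.016), *Cox7a2l* (-0.073) and *Atp5a1* (0.031). Leaving out each mouse in turn, values that turned ran from -0.12 to 0.093 for *Sdhc*, -0.033 to 0.29 for *Sdha*, -0.073 to 0.12 for *Sdhd*, -0.23 to 0.053 for *Cyc1*, -0.23 to 0.028 for *Uqcrc1*, -0.25 to 0.06 for *Uqcrfs1*, -0.26 to 0.004 for *Cox4i2*, -0.096 to 0.37 for *Cox6a2*, -0.025 to 0.23 for *Cox7a2l*, -0.16 to 0.14 for *Atp5a1* and -0.092 to 0.26 for *Atp5b*. Differences of shares (percentage points) that turned ran from -0.11 to 0.0462 for *Cox4i2*, -1.41 to 0.0443 for *Cox7a1*, -0.326 to 3.17 for *Cox6c2*, -0.243 to 3.21 for *Atp5g2* and -1.75 to 1.53 for *Atp5g3*.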
